A study of Mus musculus with 2 samples.

Results

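Of the 21938 protein-coding genes of the mouse nuclear genome, 52 carry symbols that begin with Kdm, Kmt, Hdac, Sirt or Setd followed by a digit. These symbols are given to lysine demethylases (18 Kdm genes), lysine methyltransferases (8 Kmt and 8 Setd genes), histone deacetylases (11 Hdac genes) and sirtuins (7 Sirt genes). The members were taken by symbol from the GENCODE M21 annotation; the rule uses no measured value, but the families were picked with earlier results of these data known. A symbol is not proof of a histone substrate: Sirt3, Sirt4 and Sirt5 encode mitochondrial sirtuins, and Setd3 encodes an enzyme known to methylate actin.

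Notch1 was profiled by chromatin immunoprecipitation and sequencing (ChIP-seq) in primary gamma delta T cells. They came from C57BL/6 mice, wild type, and were taken from the thymus at postnatal day 0 to 3. The Notch1 library was made with the rabbit monoclonal antibody D1E11. The second sample was input chromatin of the same cells without antibody, and it is not analysed here. With 1 Notch1 library there was no replicate and no test between conditions, so every value below describes the peaks of that library. The deposited list (build mm10) held 5910 nuclear peaks and 3 mitochondrial ones. Each peak has a score, which is the authors' own value and served only to rank peaks within the list. Its median over nuclear peaks was 717.7 and its upper quartile began at 903.7. The read depth is unknown from the file, and a peak list holds no RNA values against which the cell type label could be checked.

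Histone methyltransferases and demethylases add and remove methyl groups on histone tails, and deacetylases remove acetyl groups, which is generally linked to a less active promoter. In the nucleus the intracellular domain of Notch1 acts through the DNA-binding protein RBPJ. In the absence of Notch, RBPJ is known to hold corepressor complexes that contain deacetylases and the demethylases Kdm1a and Kdm5a, so some of these genes encode partners of the pathway itself. The question here was which of the 52 genes had a Notch1 peak near a transcription start site, and where it lay.

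A peak was assigned to a gene when its nearest edge was no more than 5 kb from an annotated start site of that gene. Of the 52 genes 17 did, which is 32.7% (95% Wilson interval 21.5 to 46.2, counting error only). Of the other 21886 protein-coding genes 1916 did, which is 8.75%. The share among the 52 genes was 3.73 times that of the other genes, a difference of 23.9 percentage points. The 17 genes were Kdm1a, Kdm2a, Kdm2b, Kdm3a, Kdm3b, Kdm5a, Kdm5c, Kdm6b, Kmt2e, Kmt5b, Hdac4, Hdac5, Hdac7, Hdac9, Sirt4, Setd4 and Setd5. Together they had 30 peaks, and the list holds each of these once. The last gene inside the window was Sirt4, with a peak 4277 bp away, and the first outside it was Sirt5, at 6334 bp. In the 35 genes without a peak the nearest lay at least 6.33 kb and at the median 132 kb away, and over 100 kb away in 18 of them. The median distance to the nearest peak was 49.5 kb over the 52 genes and 119 kb over the other genes.

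**Figure D1:**
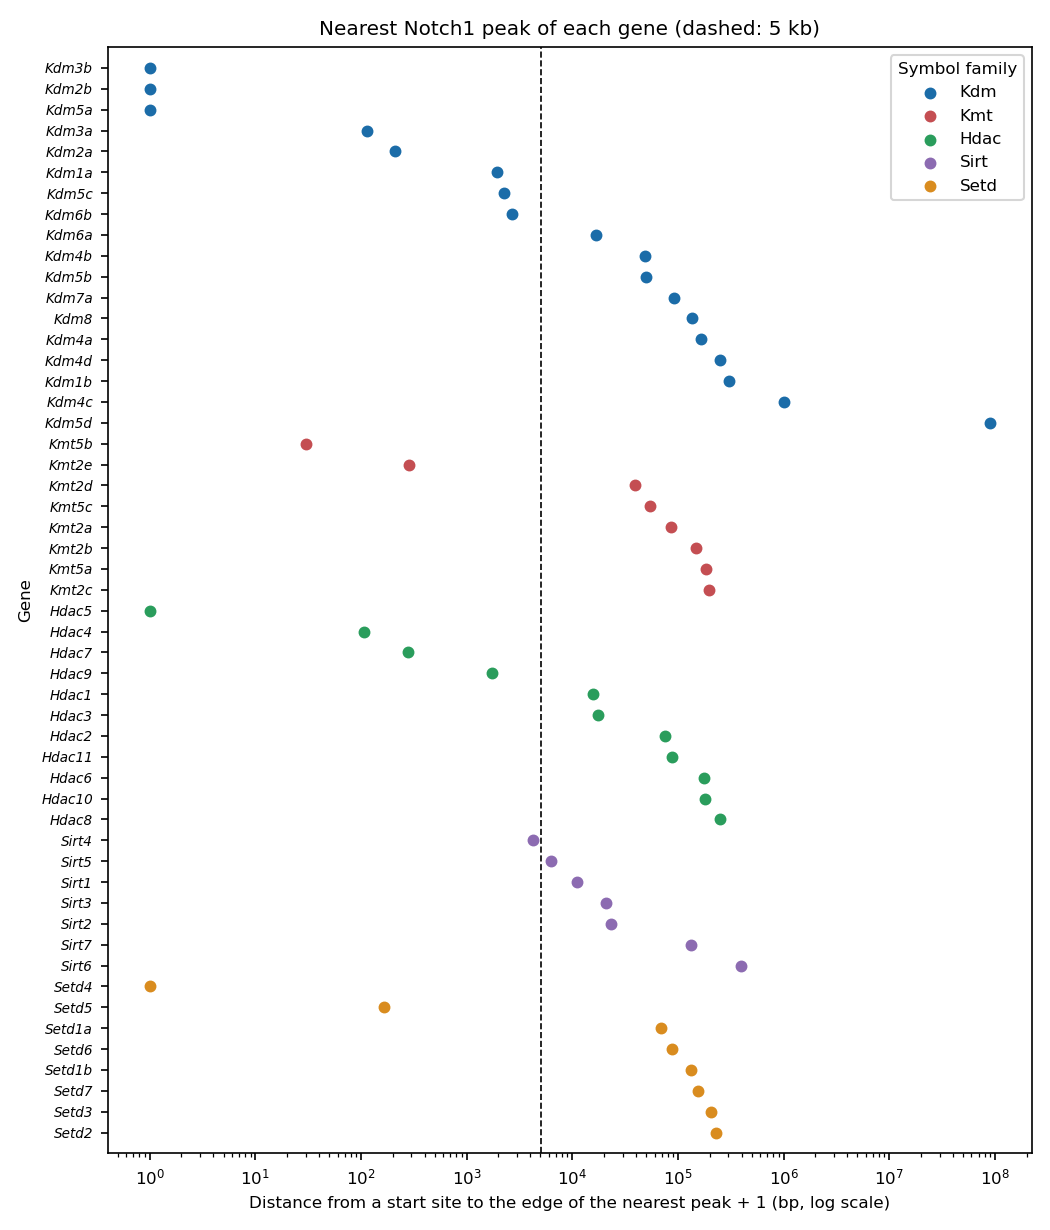
Distance in bp (log scale, 1 added) from a start site to the edge of the nearest Notch1 peak, with 1 point for each of the 52 genes, coloured by symbol family. The 17 genes left of the dashed line at 5 kb had a peak, and the 35 genes right of it did not, with Kdm5d on chromosome Y farthest out.

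Several of the 17 genes had more than 1 peak. At least 2 peaks lay within 5 kb of 8 of the 52 genes, against 282 (1.29%) of the other genes. At least 3 lay near Kdm2b, Kdm6b and Kmt2e, against 74 (0.338%) of the other genes. Kdm2b, with 5 peaks, was 1 of 15 protein-coding genes in the genome with that many. The 15 included Sfi1 (38 peaks) and several genes with Gm symbols, such as Gm10717 (10 peaks), as well as Nr4a1 and Junb (7 peaks each). Kdm2b had 19 annotated start sites, against a median of 7.50 over the 52 genes. Its intronic peaks counted only through start sites far downstream of the principal one. The score was at or above the median of the list in 21 of the 30 peaks (70.0%), against 49.9% of the other 5880 nuclear peaks. It was in the upper quartile in 12 of the 30, against 24.9% of the other peaks. The median score was 829.1 for the 30 peaks and 717.0 for the others. The 30 peaks were chosen for lying within 5 kb of a start site and the others were not, so these score comparisons are a description. Peaks near start sites of other genes were not set beside them. Several of the 12 peaks in the upper quartile came from Kdm2b and Kdm6b.

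The sequences of the 3 peaks of highest score are shown because they rank highest among the 30 and show what sequence lay at their centres. Each is the central 200 bp of its peak on build mm10, in lower case, with capitals for any RBPJ core, RUNX or ETS motif (defined below). The window of Kdm2b holds 1 RUNX motif (as ACCACA, its reverse complement), and those of Kmt2e and Kdm6b hold none of the 3 motifs.
Kmt2e (score 2293, chr5:23432778-23432977, plus strand): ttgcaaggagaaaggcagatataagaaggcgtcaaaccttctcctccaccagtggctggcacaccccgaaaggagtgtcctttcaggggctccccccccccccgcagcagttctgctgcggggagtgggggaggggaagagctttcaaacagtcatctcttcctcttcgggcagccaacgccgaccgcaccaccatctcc
Kdm6b (score 1970, chr11:69409544-69409743, plus strand): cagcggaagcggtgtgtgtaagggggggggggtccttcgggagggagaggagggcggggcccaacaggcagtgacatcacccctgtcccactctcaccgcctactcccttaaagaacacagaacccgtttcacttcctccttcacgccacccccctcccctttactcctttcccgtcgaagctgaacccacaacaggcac
Kdm2b (score 1759, chr5:122990536-122990735, plus strand): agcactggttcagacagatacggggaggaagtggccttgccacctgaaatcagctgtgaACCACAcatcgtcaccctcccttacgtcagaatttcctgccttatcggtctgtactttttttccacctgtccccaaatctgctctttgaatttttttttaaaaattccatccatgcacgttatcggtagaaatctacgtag

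The next set shows every occurrence of the core TGGGAA, the sequence that RBPJ binds, in the central 200 bp of peaks at these genes. There were 9 such windows at 7 genes, each with a single core. Each line gives 50 bases around the core, read on the strand where it runs TGGGAA, with the core in capitals.
Kdm6b (score 1608, chr11:69410679-69410728, minus strand): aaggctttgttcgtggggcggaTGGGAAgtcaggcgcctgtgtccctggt
Kdm1a (score 1461, chr4:136581128-136581177, minus strand): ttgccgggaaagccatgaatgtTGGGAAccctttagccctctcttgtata
Kdm2b (score 1297, chr5:122892125-122892174, plus strand): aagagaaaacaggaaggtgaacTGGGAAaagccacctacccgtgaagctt
Hdac5 (score 944, chr11:102200904-102200953, plus strand): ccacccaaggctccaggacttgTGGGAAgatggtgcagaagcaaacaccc
Hdac7 (score 846, chr15:97826481-97826530, plus strand): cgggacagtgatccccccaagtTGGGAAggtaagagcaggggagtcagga
Hdac9 (score 758, chr12:34905081-34905130, minus strand): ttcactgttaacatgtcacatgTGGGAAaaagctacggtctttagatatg
Kdm6b (score 662, chr11:69408874-69408923, minus strand): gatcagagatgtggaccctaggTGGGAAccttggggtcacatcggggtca
Kdm2b (score 631, chr5:122949386-122949435, minus strand): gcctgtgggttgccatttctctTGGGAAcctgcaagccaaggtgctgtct
Hdac4 (score 542, chr1:92179295-92179344, plus strand): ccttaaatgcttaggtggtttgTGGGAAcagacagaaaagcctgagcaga

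Motifs were searched on both strands in the central 200 bp: TGGGAA (RBPJ core), TGTGGT (RUNX), CCGGAA (ETS), CACGTG (E-box), TGACTCA (AP-1), GGGCGG (GC box), CCAAT (NFY), and the ZBTB33 and NRF1 palindromes. No motif contains another. The RBPJ core was present in 9 of the 30 windows (Wilson interval 16.7 to 47.9%), against 17.0% of all 5910 nuclear peaks, a value inside that interval. Over whole peaks the shares were 33.3% at these genes and 29.5% in the list. The core was in 2 of the 16 peaks at promoters (12.5%), against 17.1% of the 1173 promoter peaks of the list. It was in 7 of the 14 peaks elsewhere, against 17.0% of 4737 such peaks, but Kdm2b and Kdm6b each gave 2 of the 7.

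The longer string TGTGGGAA, which contains the core and was looked at after the sequences had been seen, was in 3 windows, those of Hdac4, Hdac5 and Hdac9. In the whole list it was in 1.54% of the windows. The GC box was in 10 windows (33.3%), against 7.43% of all nuclear peaks and 24.9% of promoter peaks. By place, it was in 6 of the 16 peaks at promoters (37.5%) and in 4 of the 14 elsewhere (28.6%). In the list it was in 3.10% of peaks away from promoters. The 4 lay at Kdm6b, Hdac7 and Sirt4. RUNX was in 3 of the 30 windows, against 16.8% of the list and 11.8% of promoter peaks. Over whole peaks, where more sequence was searched, it was in 26.7% of the 30 and in 26.9% of the list. NFY was in 4 windows (13.3%), against 23.9% of the list, and over whole peaks in 40.0% of the 30 and in 39.1% of the list. The shares of both motifs in the list lay inside the Wilson intervals of the 30 windows (3.46 to 25.6% for RUNX and 5.31 to 29.7% for NFY). ETS was in 3 windows, all at promoters (3 of 16 promoter peaks, 18.8%), against 4.23% of the list and 12.3% of its promoter peaks. AP-1 was in 1 window, in Kdm6b, against 3.76% of the list, and NRF1 in 1, at Setd4, against 0.118%. The E-box and ZBTB33 strings were in 0 of the 30 windows, against 2.88% and 0.0677% of the list. For ETS, AP-1, the E-box and ZBTB33, 30 windows are too few to tell these counts from the shares of the list. The Wilson interval for ETS over the 30 windows was 3.46 to 25.6%, which holds both shares given for it. The interval for the GC box was 19.2 to 51.2%, which holds its share of promoter peaks but not that of all nuclear peaks. The NRF1 share rests on 1 window. A match is a description of letters, and the absence of a match says only that those letters are not in that window.

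Genes with CpG-rich promoters had peaks more often across the whole genome, so the 52 genes were also set beside genes of similar promoter CpG ratio. This is the observed over expected number of CpG pairs in the 500 bp on either side of the principal start site. Its median was 0.773 in the 52 genes and 0.570 in the other genes. Among other genes the share with a peak was 2.37% in the lowest of 10 equal groups by CpG ratio and 16.2% in the highest. With each of the 52 genes set beside the other genes in its own group, the mean share of those genes was 11.8%. The share of 32.7% was 2.76 times that, a difference of 20.9 percentage points. Within the 52 genes, the median ratio was 0.773 in genes with a peak and 0.774 in genes without.

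**Figure D2:**
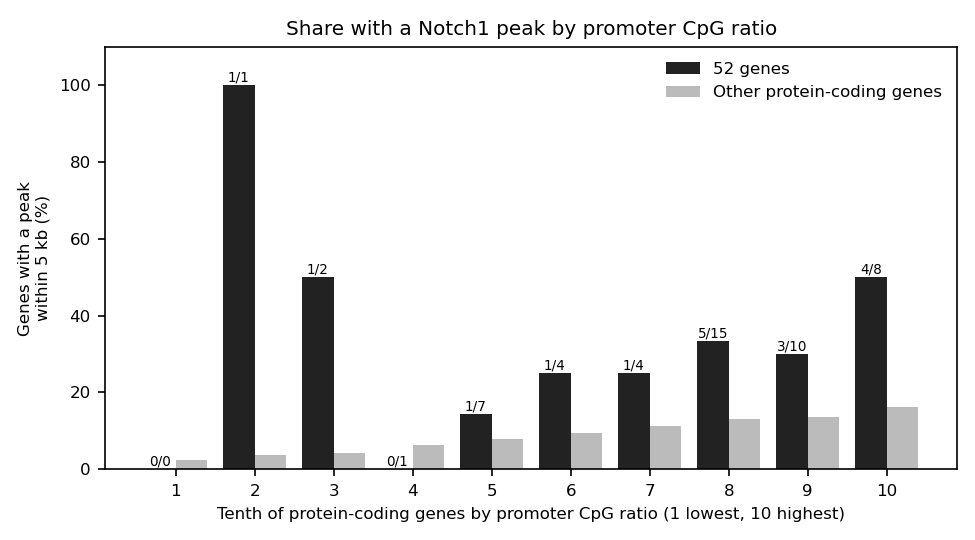
Share of genes with a Notch1 peak within 5 kb (percent) in each of 10 equal groups of protein-coding genes by promoter CpG ratio, for the 52 genes (black, with their counts) and the other protein-coding genes (grey). In the highest group 4 of 8 of the 52 genes had a peak, against 16.2% of the others, and several groups hold very few of the 52 genes.

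The number of annotated start sites also differed, and it sets how much sequence lies within 5 kb of one. The median was 7.50 start sites in the 52 genes and 3.00 in the other genes. Within the 52 genes it was 11 in those with a peak and 6.00 in those without. The median gene length was 52.2 kb in members with a peak, 29.7 kb in members without and 17.4 kb in the other genes. Genes were also grouped coarsely by both CpG ratio (5 equal groups) and number of start sites, with all genes of 11 or more start sites pooled. The comparison share then became 14.9%, and 32.7% was 2.20 times that. With only the principal start site of every gene, 13 of the 52 genes had a peak within 5 kb, against 6.52% of the other genes. Within 1 kb of it 9 did (17.3%), against 3.82%. Kdm1a, Hdac5, Hdac7 and Hdac9 had peaks only near other start sites. With start sites of protein-coding transcripts alone, 16 of the 52 genes had a peak, against 7.51% of the other genes. Within 1 kb of any start site 12 did, against 5.12%, and within 20 kb 22 did, against 17.6%. With each peak given to the closest gene alone, up to 50 kb away, 20 did, against 14.4%. With the same restriction inside the 5 kb window the 17 genes all kept a peak, against 7.74% of the other genes. When peaks below the median score were left out 15 did, against 5.01%, and in the upper quartile 8 did, against 2.59%.

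**Figure D3:**
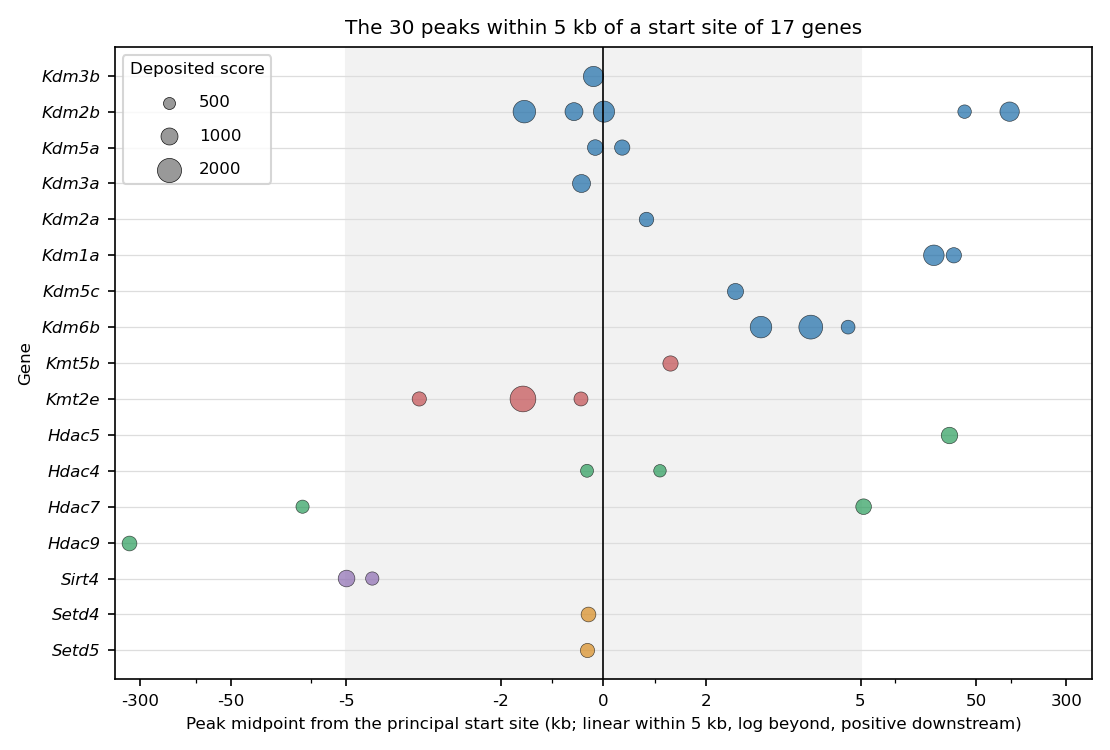
Midpoint of each of the 30 peaks from the principal start site of its gene (kb, linear within 5 kb and log beyond), with 1 row per gene, area in proportion to the deposited score and colour by symbol family. Peaks of Kdm3b, Kdm3a, Kdm5a, Setd4 and Setd5 had midpoints within 500 bp of the principal start site, while those of Kdm1a, Hdac5 and Hdac9 lay more than 20 kb from it.

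The demethylases held the largest number of genes with a peak, 8 of 18 (44.4%, Wilson interval 24.6 to 66.3). Kdm2a and Kdm2b, whose proteins recognise unmethylated CpG through a CXXC zinc finger, both had one. At Kdm2b, which is known to bring a Polycomb complex to CpG islands, 3 peaks lay next to each other around the main promoters on chromosome 5. They spanned 122988886 to 122989289 (score 1548), 122989462 to 122989879 (score 1118) and 122990184 to 122991088 (score 1759). The first and second covered start sites of the gene. The other 2 peaks of Kdm2b lay inside introns, 39.6 kb (score 631) and 97.0 kb (score 1297) downstream of the principal start site. The more distant one was 195 bp wide and 68.2% soft-masked repeat sequence, and it was the only one of the 30 peaks with over 50% soft-masked bases. The single peak of Kdm2a was at its promoter (chromosome 19, 4397302 to 4397624, score 728), 207 bp from a start site and 37.2% soft-masked.

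Kdm3a and Kdm3b, which remove repressive methyl marks from histone H3, each had 1 peak at the promoter. The Kdm3b peak covered 2 start sites on chromosome 18, from 34776599 to 34777086 (score 1416). The Kdm3a peak lay 112 bp from a start site on chromosome 6, from 71633102 to 71633729 (score 1120). Kdm5a, which removes a methyl mark of active promoters and is a known partner of RBPJ in repression, had 2 peaks on chromosome 6. They spanned 120363787 to 120364145 (score 847) and 120364278 to 120364703 (score 810). Start sites of Ccdc77 lay within 5 kb of both, and the second peak covered one, so this promoter region is shared by the 2 genes. Kdm5c, the X-linked relative, had an intronic peak 2270 bp from a start site (chromosome X, 152235542 to 152236047, score 900).

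Kdm6b removes the methyl mark laid down by Polycomb and is an inducible gene in immune cells. It had 3 peaks within its gene on chromosome 11, all 3.06 to 4.76 kb downstream of the principal start site by midpoint and none at the promoter. They spanned 69410205 to 69411016 (score 1608), 69409228 to 69410059 (score 1970) and 69408713 to 69409121 (score 662). Its promoter, taken at the principal start site, was poor in CpG (ratio 0.172). Within the 3 peaks, in the order given, the ratio was 0.745, 0.629 and 0.403. Kdm1a, the flavin-dependent demethylase of RBPJ corepressor complexes, had 2 peaks on chromosome 4, 21.5 and 32.0 kb downstream of its principal start site. The nearer spanned 136581138 to 136581307, 170 bp in width, the narrowest of the 30, with a score of 1461. The farther spanned 136570535 to 136570944 (score 812). None of the 4 Kdm4 genes had a peak within 5 kb, nor did Kdm1b, Kdm5b, Kdm5d, Kdm6a, Kdm7a or Kdm8.

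Of the 8 Kmt genes 2 had a peak (Wilson interval 7.15 to 59.1%). Kmt2e encodes a SET domain protein of the Kmt2 family that is thought to lack methyltransferase activity. It had 3 peaks upstream of the gene on chromosome 5. The middle one, from 23432520 to 23433235, scored 2293, the highest score of the 30 and rank 72 of the nuclear list. It lay 1206 bp from a start site in intergenic sequence. The promoter peak, from 23433854 to 23434155, scored 680, and the third, from 23430687 to 23431034, scored 700. Kmt5b, which methylates histone H4, had one at a promoter (chromosome 19, 3768576 to 3768853, score 808), 29 bp from a start site and 1.29 kb downstream of the principal one. Kmt2a and Kmt2d, large methyltransferases of active promoters and enhancers, had their nearest peaks 85.5 and 39.6 kb away.

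Of the 11 Hdac genes 4 had a peak (36.4%, Wilson interval 15.2 to 64.6), and they were Hdac4, Hdac5, Hdac7 and Hdac9, the 4 class IIa deacetylases. Class IIa proteins are corepressors that move between nucleus and cytoplasm in response to signals, bind MEF2 factors, and include Hdac7, which is abundant in thymocytes. None of the 4 class I genes (Hdac1, Hdac2, Hdac3 and Hdac8), of the class IIb genes Hdac6 and Hdac10, or of the class IV gene Hdac11 had a peak within 5 kb. With 8.75% of other protein-coding genes called, these groups are too small to show a lack of peaks. Their Wilson intervals were 0 to 49.0%, 0 to 65.8% and 0 to 79.3%. By the principal start site alone, Hdac4 was the only class IIa gene with a peak. In the upper quartile of score Hdac5 was the only one. The split into classes is the textbook one but was singled out after the values had been seen, and it was not tested. The class IIa genes had a median length of 159 kb and 11 start sites, against 27.0 kb and 5.50 for class I, and the part of these differences in the count was not tested.

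At Hdac4 both peaks lay at the main promoter on chromosome 1, from 92180447 to 92180870 (score 582) and from 92179055 to 92179426 (score 542). Both scores were below the median of the list. The Hdac7 peaks on chromosome 15 spanned 97826320 to 97826588 (score 846, 5.31 kb downstream of the principal start site) and 97843500 to 97843886 (score 602, 11.9 kb upstream of it). The closest start site to the first, 4881 bp away, was that of a transcript annotated as nonsense-mediated decay. The second lay 278 bp from another protein-coding start site of the gene. The Hdac5 peak (chromosome 11, 102200791 to 102201253, score 944) covered the start of a transcript annotated as a retained intron, 29.1 kb downstream of the principal start site. The Hdac9 peak (chromosome 12, 34904931 to 34905234, score 758) lay 1745 bp from such a transcript and 377 kb upstream of the principal start site. Hdac9 was the only gene of the 17 that lost its peak when only start sites of protein-coding transcripts counted.

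Among sirtuins 1 of 7 genes had a peak (14.3%, Wilson interval 2.57 to 51.3). The 2 peaks of Sirt4 lay in intergenic sequence on chromosome 5, upstream of the gene, from 115489002 to 115489435 (score 611) and from 115489558 to 115489880 (score 964). Of the 8 Setd genes 2 had a promoter peak (Wilson interval 7.15 to 59.1%). Setd5, whose protein is known in complexes with deacetylases, had one on chromosome 6 from 113076909 to 113077201 (score 702). Setd4 had one on chromosome 16 from 93603955 to 93604262 (score 753), which also lay 1591 bp from a start site of Cbr1. Setd2, which methylates histone H3 along transcribed genes, had its nearest peak 227 kb away.

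The 30 peaks lay at promoters more often than the rest of the list. Of the 30, 16 (53.3%) came within 1 kb of an annotated start site of a protein-coding gene. Of the rest, 2 lay in exons, 8 in introns and 4 between protein-coding genes. Of the other 5880 nuclear peaks 19.7% were at promoters, but the choice of peaks within 5 kb of a start site favours promoters, so these shares are a description. The median GC content was 54.9% in the 30 peaks and 43.8% in the others. At promoters it was 59.2% in the 16 peaks and 52.4% in the others, and away from promoters it was 47.4% in the 14 peaks and 42.4% in the others. Soft-masked repeat sequence made up under 20% of 26 of the 30 peaks, against 60.0% of the others. That comparison was not split by promoter, and it too sets peaks chosen near start sites beside all the rest. A peak inside the annotated gene was found in 16 of the 52 genes, against 11.6% of the other genes. Counting only peaks with under 20% soft-masked sequence left 16 of the 52 genes with a peak (30.8%), against 6.31% of the other genes.

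Other histone-modifying enzymes and subunits of their complexes, with different symbols, were taken from 5 lists with 67 genes. Of these 22 had a peak within 5 kb (32.8%, Wilson interval 22.8 to 44.7), a share close to the 32.7% of the 52 genes. The lists are not independent of earlier results on these data. Methyltransferases with other symbols had peaks at 11 of 20 genes (55.0%), among them the Polycomb enzymes Ezh1 (score 795) and Ezh2 (704), Dot1l (946) and Nsd1 (1146). Acetyltransferases had them at 3 of 10, namely Kat6a (1109), Kat7 (842) and Kat8 (724). Subunits of deacetylase complexes had them at 4 of 17, namely Chd4, Mta3, Sin3b and Tbl1xr1. Subunits of Kmt2 complexes had them at 2 of 11 and other JmjC proteins at 2 of 9. The corepressor genes Ncor1 and Sin3a had none within 5 kb.

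**Figure D4:**
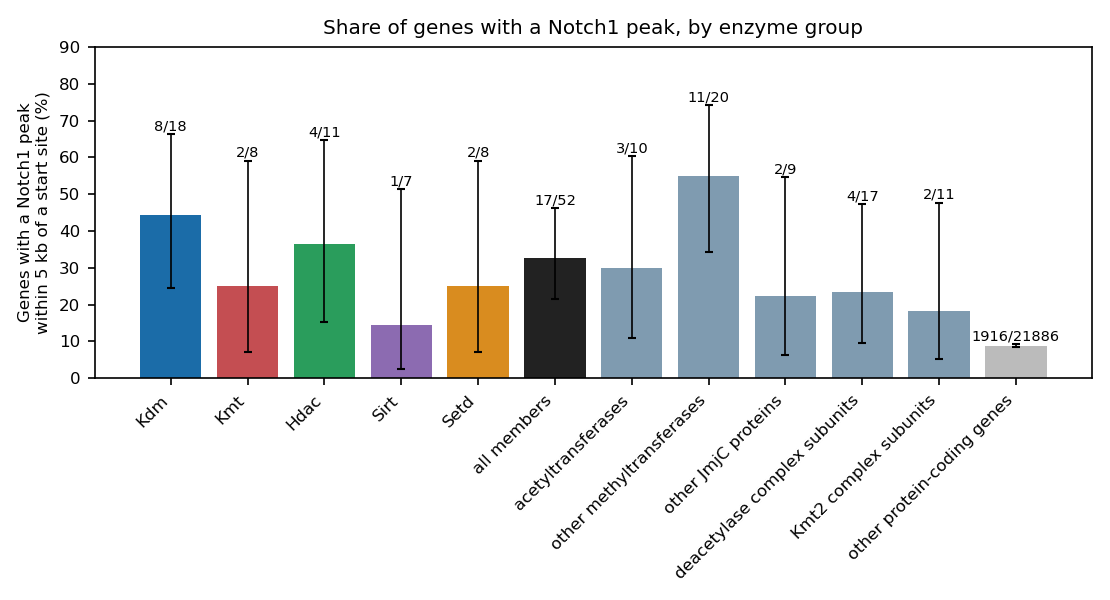
Share of genes with a Notch1 peak within 5 kb of a start site (percent), with 95% Wilson intervals as bars and counts above, for the 5 symbol families, all 52 genes, 5 lists of other histone enzymes and subunits, and the other protein-coding genes. The 52 genes stood at 32.7% against 8.75% of the other protein-coding genes, and the intervals of the 5 families overlap each other.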

How the data were processed

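Notch1 ChIP-seq and input chromatin of gamma delta T cells were sequenced, and the deposited peak list of the Notch1 library was the file used. Per the submitters' processing notes, Bowtie 1.0.0, SAMtools 0.1.18 and build mm10 were used. The list has no header, gives positions, names that start with MACS and a score for each peak, and the authors' score has no unit stated in the sources used here. The sources used here do not give the caller's version or settings, the use of the input or the treatment of duplicate reads. Duplicates from 18 cycles of PCR and repeated sequence can raise a score, and the list cannot show either.

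Peaks were set on GRCm38 with GENCODE M21, and 0 reached past a chromosome end. The 13 mitochondrial protein-coding genes were left out. The principal start site is that of the best-ranked APPRIS principal transcript, the most upstream where several tie. Peaks within 1 kb of the start of any transcript of a protein-coding gene were classed as promoter (1 bp of overlap sufficed). The rest were classed as exon, intron or intergenic, in that order. Only protein-coding genes were used for these classes, so a peak called intergenic may lie in a noncoding gene. No enrichment test was run, since genes are not replicates. Distance and motif counting were tested on simulated data. By rule, all members with a peak are named, with 13 fixed genes of Notch or T cell interest (several have a peak) and the 3 whose nearest peak lies just outside the window. The other members named complete a family or class or illustrate a role, and were chosen after their values were seen. The members, lists and motifs were chosen with earlier results of these data known. Python 3.11.15, numpy 2.4.6, pandas 2.3.3, scipy 1.17.1 and pysam 0.24.0 were used.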

Additional observations from a re-analysis of the deposited data

How the results depend on the processing

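No paired analysis was possible because there is 1 Notch1 library. The count of 17 genes moved by more than 1.5 times under 2 settings: to 8 with peaks in the upper quartile of score (15.4%, against 2.59% of other genes) and to 9 within 1 kb of the principal start site alone. Over all settings, the share of the 52 genes was 12.8 to 24.9 points above that of the other genes. It was 11.5 to 22.1 points above that of genes of similar CpG ratio, over these and 6 other ways to define similar genes. Family counts are small. Within 1 kb the Kdm count was 5 and the Sirt count 0, while the Sirt count was 3 within 20 kb and also 3 when a peak counted for the closest gene alone, up to 50 kb away. At or above the median score the Setd count was 1. In the upper quartile the counts were Kdm 5, Kmt 1, Hdac 1 and Setd 0. Over whole peaks RUNX was in 26.7% (8) of the 30, against 26.9% of the list, and NFY in 40.0% (12), against 39.1%, so the lower shares in the central windows were not seen there. Alternatives chosen after seeing the data were the principal start site alone, similar gene length, and peaks within 5 kb counted for their closest gene alone (17 genes). Read depth, the input and replicate spread could not be assessed.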

Other observations

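A peak at any distance from a start site overlapped the annotated gene in 16 of the 52 genes (30.8%). The share was 11.6% of the other protein-coding genes, which are shorter (median 17.4 kb, against 42.4 kb). Most of those 16 were counted through peaks within 5 kb. Only Hdac9, Hdac7, Sirt5, Sirt1 and Kdm6a held a peak inside the gene but beyond 5 kb of its start sites. Hdac9 had 3 further intronic peaks with scores of 781, 598 and 587. Hdac7 had 1 more intronic peak, with a score of 759. Sirt5, a mitochondrial sirtuin, had an exonic peak (chromosome 13, 43386007 to 43386237, score 1055). Sirt1, a nuclear sirtuin, had one in an intron, 10965 bp from its closest start site (score 698). Kdm6a, the X-linked relative of Kdm6b, had one in an intron 16.6 kb away (score 831). The nearest peaks of Hdac1 (15.8 kb) and Hdac3 (17.5 kb), deacetylases of corepressor complexes, lay outside those genes. Sirt2 had 5 peaks within 50 kb, the nearest 23.1 kb away with a score of 2008, and no peak inside the gene. Of the 52 genes 25 had no peak within 50 kb.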
